A study of Mus musculus with 4 samples.

Results

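The promoters examined here are those of genes that carry a provisional mouse name, the letters Gm followed only by a number. They were taken as every entry of the deposited promoter table whose symbol has this form, which gave 3143 of 26354 promoters. The remaining 23211 promoters carry other symbols and served as the comparison. H3K9me2 ChIP-seq was performed on the medial layer of aortas from C57Bl/6J male mice, used straight from the tissue after removal of adipose tissue, adventitia and endothelium. A ChIP library and its input were made in each of 2 experiments, v102 and v134, and all 4 libraries came from the same strain, sex and tissue with no genetic change or treatment. Animal age and the number of animals per library are not given in the sources used here. The libraries hold promoter chromatin and no RNA, so the labelled cell type was checked only at marker promoters. At smooth muscle genes, Myh11 had 0 and 0 ChIP reads, Tagln 2 and 3, Acta2 0 and 4 and Cnn1 0 and 5 in v102 and v134. The endothelial genes Cdh5 and Pecam1 had 9 and 8, and 3 and 2, the fibroblast gene Pdgfra had 1 and 0, and the leukocyte gene Ptprc had 15 and 39. In the edgeR test described below, Myh11 (adjusted p = 4.85e-04), Pdgfra (0.0167) and Pecam1 (0.0478) were below input and Ptprc (6.54e-06) above. With the experiment as a block, Pdgfra (0.0564) and Pecam1 (0.0922) were not called. Acta2, Tagln, Cnn1 and Cdh5 were not called in the first fit. These markers thus do not separate smooth muscle from endothelial cells or fibroblasts.

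Mouse genes receive a Gm symbol, for predicted gene, when a gene model has been placed on the genome but no functional name has been given. Such models include processed pseudogenes, which are copies of messenger RNAs inserted back into the genome, long non-coding RNAs, transcripts antisense to other genes and protein-coding models of uncertain function. H3K9me2, dimethylation of lysine 9 of histone H3, is a repressive mark laid down mainly by the methyltransferases EHMT2 and EHMT1. It typically covers broad stretches of silent chromatin and is low at CpG islands of active genes.

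Relative to input, Gm promoters held more H3K9me2 ChIP reads than the other promoters in both experiments, a difference that a design of 2 libraries against 2 cannot carry below p = 0.333 in an exact permutation test. At the median Gm promoter there were 6 and 7 ChIP reads in v102 and v134, against 4 and 5 at the other promoters, while input reads were the same in both sets, at 20 and 37. Promoters were called above or below input where their ChIP reads, set against input and against the bulk of promoters, passed the quasi-likelihood test of edgeR (adjusted p under 0.05, Benjamini-Hochberg over the whole table). Of the Gm promoters 806 (25.6%) were called above input, where 18.6% of all promoters were. A further 359 (11.4%) were called below input, where 17.0% of all promoters were. With the experiment as a block the counts were 686 above and 158 below, all of them among the former, against 15.8% above and 8.30% below for all promoters. The count below input changed with the libraries and the tool used, with 37 Gm promoters (1.18%) without input v102, 32 (1.02%) without input v134, 139 without ChIP v134 and 0 by DESeq2, which called 181 at an unadjusted p under 0.05. The count above was 499 and 497 without these inputs and 495 by DESeq2. The excess lay mainly in pseudogenes, in protein-coding models and in Gm genes far from any listed promoter without a Gm symbol. Gm promoters that share a window with another gene were low, and so were other promoters that do.

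**Figure D1:**
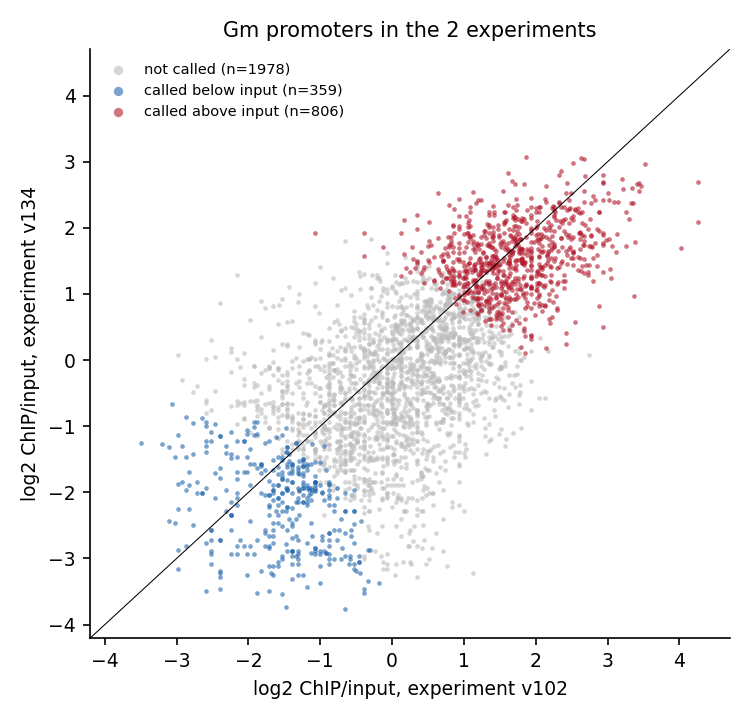
Each point is 1 of the 3143 Gm promoters, with its log2 ratio of ChIP to input reads in experiment v102 on the x axis and in v134 on the y axis. The line marks equality; promoters called above input lie to the upper right and those called below input to the lower left, and 1978 were not called.

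Several stretches of sequence, picked as examples, come from promoters at the 2 ends of this range. They are printed 5′ to 3′ along the strand of the Gm gene, from the GRCm38 genome, in lower case with each CG dinucleotide in capitals. The first set are the 160 bases before the annotated start of Gm genes with high H3K9me2 and no annotated exon in the stretch, at chr1:107686848-107687007 on the plus strand for the lincRNA Gm15389, chr12:63073145-63073304 on the minus strand for the processed pseudogene Gm5185 and chr14:112481207-112481366 on the plus strand for the processed pseudogene Gm4822.
Gm15389: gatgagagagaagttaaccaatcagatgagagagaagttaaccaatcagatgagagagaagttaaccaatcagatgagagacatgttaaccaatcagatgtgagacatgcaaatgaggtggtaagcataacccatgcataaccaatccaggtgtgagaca
Gm5185: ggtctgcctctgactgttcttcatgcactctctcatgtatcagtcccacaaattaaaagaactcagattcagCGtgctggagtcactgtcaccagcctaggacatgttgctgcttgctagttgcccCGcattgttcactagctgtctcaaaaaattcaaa
Gm4822: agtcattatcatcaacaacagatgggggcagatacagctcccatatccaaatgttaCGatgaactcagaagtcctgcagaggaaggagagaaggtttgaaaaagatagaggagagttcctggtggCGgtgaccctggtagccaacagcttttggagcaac
These hold 0, 2 and 2 CG. The stretch before Gm15389 is a tandem repeat, since shifting it by 24 bases left 92 of 136 compared bases (67.6%) identical.
For low H3K9me2, the whole interval between a Gm start and the start of its divergent neighbour is shown, at chr4:155624756-155624853 on the minus strand for Gm16023, which faces Cdk11b, and at chr16:91688771-91688897 on the plus strand for Gm10785, which faces Donson. No exon is annotated in either interval.
Gm16023: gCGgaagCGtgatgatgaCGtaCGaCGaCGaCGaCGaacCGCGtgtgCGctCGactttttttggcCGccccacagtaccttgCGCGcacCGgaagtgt
Gm10785: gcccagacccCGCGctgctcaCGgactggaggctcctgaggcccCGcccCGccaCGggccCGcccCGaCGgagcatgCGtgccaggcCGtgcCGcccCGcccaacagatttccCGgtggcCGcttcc
The first of these holds 16 CG in 98 bases and the second 15 CG in 127 bases. Other promoters among the lowest are not CG-dense. The ratio of observed to expected CpG in the window was 0.224 at Gm17206, 0.212 at Gm15122, 0.111 at Gm10684 and 0.150 at Gm15523.

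Reads in the Gm windows made up 16.3% (95% Wilson interval 16.1 to 16.5) of all promoter reads of the v102 ChIP library and 16.5% (16.3 to 16.6) of the v134 ChIP library. In the inputs they made up 10.4% (10.3 to 10.5) and 11.7% (11.7 to 11.8). These intervals cover counting error only. The share averaged 16.4% ± 0.122 (SD, n = 2) in ChIP and 11.1% ± 0.954 (SD, n = 2) in input, and both ChIP libraries lay above both inputs. The two-sided exact permutation test gave p = 0.333, the smallest that 2 libraries against 2 allow. Pooled over windows, ChIP reads per input read were 1.68 times as frequent at Gm promoters as at the others in v102 and 1.48 times in v134 (1.58 ± 0.139, SD, n = 2). Leaving out the 5 Gm promoters with the most input reads lowered it to 1.43. Leaving out the mitochondrial promoters among the others instead lowered it to 1.39, and both were not left out together.

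The ratio at single promoters is given as the log2 of ChIP to input reads, each divided by the table total of its library (162233 and 229605 reads for ChIP, 619100 and 1084349 for input) after adding 1 read, and averaged over the experiments. The median was 0.10 at Gm promoters (quartiles -0.84 and 1.02) and -0.37 at the others (-1.19 and 0.60). The difference was 0.50 in v102 and 0.38 in v134 (0.44 ± 0.09, SD, n = 2). In both experiments, 25.2% of Gm promoters were in the top quartile, compared with 16.8% of the others. Across Gm promoters, which are not independent replicates, the ratios of v102 and v134 were correlated at a rho of 0.729 (Spearman) and an r of 0.706 (Pearson). Promoters of other genes without a functional name had lower shares above input, a difference that was not tested. Of 2131 RIKEN cDNA promoters, 17.2% were called above and 15.8% below, and of 231 promoters named after sequence clones 14.3% and 13.0%. For the remaining 20849 symbols these shares were 17.7% and 18.0%.

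A single GENCODE entry matched 2675 of the Gm symbols, and the annotation class divided them strongly. Among the classes with more than 3 Gm members, pseudogenes were the most marked. Of 317 Gm pseudogenes, 162 (51.1%) were called above input and 6 (1.89%) below, with a median log2 ratio of 1.07. Pseudogenes with other symbols had similar values, with 49.5% of 200 above and a median of 0.94. Among the Gm pseudogenes, 138 of 274 processed pseudogenes (50.4%) and 13 of 16 unprocessed ones (81.2%), which arise by gene duplication, were called above. Those annotated as transcribed are counted apart, with 10 of 20 processed and 1 of 6 unprocessed ones above. Among the same classes, protein-coding Gm models differed most from their counterparts in the share above. They were called above at 142 of 425 promoters (33.4%) with a median of 0.42, against 15.7% of 17517 and a median of -0.48 for protein-coding genes with other symbols. They were called below at 10.4%, against 19.2%.

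Non-coding Gm genes were closer to the background. Of 1930, 377 (19.5%) were above and 260 (13.5%) below, with a median of -0.11, and non-coding RNAs with other symbols stood at 17.6%, 13.7% and -0.09. The classes within them were not alike. Long intergenic RNAs, which lie apart from coding genes, were above at 186 of 634 promoters (29.3%) with a median of 0.41. Antisense transcripts were above at 145 of 949 (15.3%) with a median of -0.30. Processed transcripts, a class without a long reading frame, were above at 27 of 219 (12.3%) and below at 53 (24.2%). None of 17 bidirectional-promoter RNAs, which start beside a coding gene on the other strand, was above and 3 were below. The 468 Gm symbols without a single match, of which 230 are listed by RefSeq as an older name of another gene, were above at 26.1% and below at 10.5%.

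**Figure D2:**
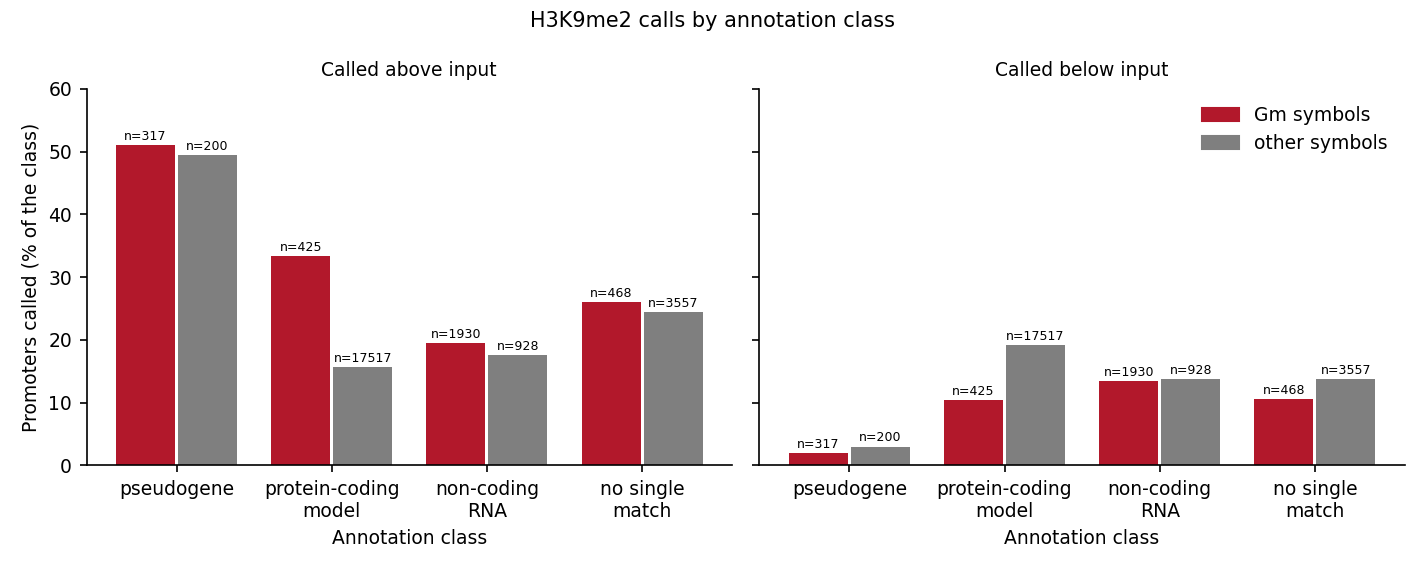
Bars give the percentage of promoters called above input (left) and below input (right) by edgeR at an adjusted p under 0.05, for Gm symbols and other symbols of each annotation class, with the number of promoters over each bar. The Gm and other bars are alike for pseudogenes and non-coding RNAs, and the Gm bar is higher on the left for protein-coding models (33.4% against 15.7%).

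H3K9me2 at Gm promoters was higher the greater the distance to the nearest listed promoter that carries another kind of symbol. Within 0.5 kb, 17 of 245 Gm promoters (6.94%) were called above and 66 below, with a median log2 ratio of -0.85. At 2 to 10 kb 15.2% of 409 were above, at 10 to 50 kb 20.8% of 927 and at 50 to 200 kb 37.1% of 645. Beyond 200 kb, 156 of 244 (63.9%) were above and 6 below, with a median of 1.33. The other promoters had shares close to those of Gm promoters up to 50 kb. Of them, 4.54% of 2049 were above within 0.5 kb, 428 of 2850 at 2 to 10 kb and 20.2% of 8304 at 10 to 50 kb. The sets parted beyond 50 kb, where the others had 16.1% of 4395 above at 50 to 200 kb and 23.7% of 1087 beyond 200 kb. In each annotation class of Gm genes the share above rose with distance. Beyond 200 kb 39 of 48 pseudogenes (81.2%), 26 of 35 protein-coding models (74.3%) and 91 of 161 non-coding RNAs (56.5%) were above, while between 2 and 50 kb these shares were 37.3%, 27.3% and 13.3%. Median window GC changed along the same scale, from 54.8% within 0.5 kb to 41.8% beyond 200 kb.

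**Figure D3:**
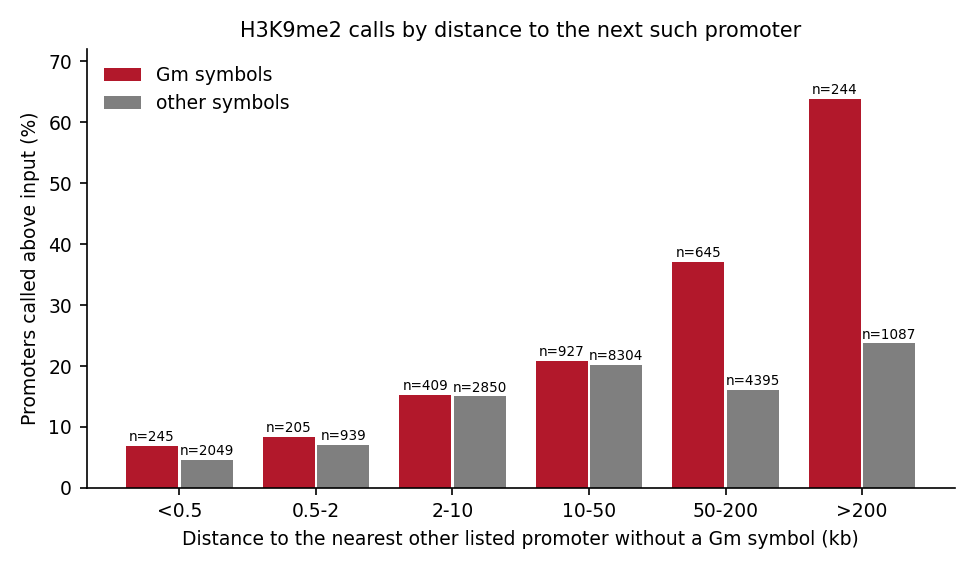
Bars give the percentage of promoters called above input against the distance in kb from the annotated start to the nearest other listed promoter without a Gm symbol, for Gm promoters and for the others. Gm promoters go from 6.94% within 0.5 kb to 63.9% beyond 200 kb. The others are close to Gm up to 50 kb and stay at or below 23.7%.

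The nearest promoter without a Gm symbol was called above more often beside Gm promoters called above than beside the rest. Among Gm promoters at least 2 kb from it, the neighbour was called above at 223 of 650 Gm promoters called above (34.3%) and at 130 of 1575 of the rest (8.25%). At 2 to 10 kb, where windows do not overlap, the shares were 50.0% of 62 and 6.34% of 347. Gm genes next to sensory receptor genes, which are silent outside sensory neurons, were among the most marked. Of 16 Gm promoters whose nearest neighbour was an olfactory receptor, 13 were above, with a median of 1.79, and 84.2% of the 1024 listed olfactory receptor promoters were above themselves. Next to vomeronasal receptors 7 of 8 were above, with a median of 1.83 (81.3% of 198 such receptors). Next to keratin or keratin-associated protein genes, which build hair and skin, 18 of 32 were above and 0 below, with a median of 1.43 (44.1% of such genes were above). Near zinc finger genes, 16 of 50 Gm promoters were above and 7 below (13.5% of 406 such genes above). None of 8 next to histone genes was above. At the 5 Gm promoters nearest to a Hox gene, a developmental regulator of the body axis, 3 were above and 1 below, where 0 of 41 listed Hox promoters were above. These 3, singled out after their values were seen, were the lincRNAs Gm14396, Gm14424 and Gm14426 beside Hoxd9 and Hoxd1. Gm14426 had 9 and 22 ChIP reads against 33 and 24 input reads, with an edgeR log2 fold change of 1.29 ± 0.42 (SE, n = 2; adjusted p = 0.00905). The adjusted p was 0.0381 at Gm14396 and 0.0219 at Gm14424 in the same test. With the experiment as a block, edgeR's adjusted p was 0.0418 at Gm14426, 0.0990 at Gm14396 and 0.0542 at Gm14424. None of the 3 was called by DESeq2 (adjusted p from 0.165 to 0.185), without ChIP v134 (edgeR adjusted p from 0.309 to 0.412) or without input v134 (0.248 to 0.430), and Gm14396 and Gm14424 were also lost without input v102 (0.271 and 0.0897) and with library totals (0.0622 and 0.0516).

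Where a Gm window overlapped that of a gene with another symbol, H3K9me2 was low and the reads are partly the same reads. This was so for 450 Gm promoters, with a median distance of 442.5 bp between the starts, and in 393 pairs (87.3%) the genes lay on opposite strands. Of the 450, 34 (7.56%) were above and 118 (26.2%) below, with a median of -0.85. Other promoters with such an overlap were low as well. With the next start within 0.5 kb, 4.54% of 2049 others were above and 32.7% below. At 0.5 to 2 kb, 7.03% of 939 were above and 27.5% below. Partners were called above at 28 of the 34 and below at 79 of the 118, and no pair had opposite calls. The 2225 Gm promoters without such an overlap were above at 29.2% and below at 8.63%, with a median of 0.28. Without overlap, Gm non-coding RNAs were above at 22.4% of 1546, protein-coding models at 37.6% of 367 and pseudogenes at 52.4% of 309.

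The ratio followed the base composition of the window closely. Under 45% GC, 42.9% of 971 Gm promoters were called above. By bin these were 54.5% under 35% GC, 48.5% at 35 to 40% and 40.2% at 40 to 45%. The other promoters had 80.5%, 61.2% and 36.6% above in these bins. At 60% GC or more 3 of 100 Gm promoters were above and 40 below, against 1.81% above and 38.5% below for the others. The median log2 ratio of Gm promoters was 0.89 at 35 to 40% GC, 0.66 at 40 to 45%, 0.18 at 45 to 50%, -0.46 at 50 to 55% and -1.02 at 55 to 60%. For the other promoters these medians were 1.33, 0.55, -0.07, -0.60 and -0.95. Gm promoters thus lay below the others at the lowest GC and slightly above them between 40% and 55%. Median window GC was 47.1% at Gm promoters and 51.5% at the others, and the median ratio of observed to expected CpG was 0.25 and 0.484. After removal of the GC trend, the difference between the Gm and other medians went from 0.52 to 0.08 over the matched promoters (0.18 in v102 and 0.00 in v134). Within a narrow range of GC the distance still separated Gm promoters. At 40 to 45% GC, 81 of 114 Gm promoters beyond 200 kb (71.1%) and 97 of 343 at 2 to 50 kb (28.3%) were above. For the others at the same GC these shares were 46.6% of 163 and 37.8% of 1337. At 45 to 50% GC the shares beyond 200 kb and at 2 to 50 kb were 45.5% and 20.4% for Gm. The others rose there too, with 30.4% and 14.8%. At 35 to 40% GC these shares were 68.3% and 31.7% for Gm, and 64.5% and 69.0% for the others.

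**Figure D4:**
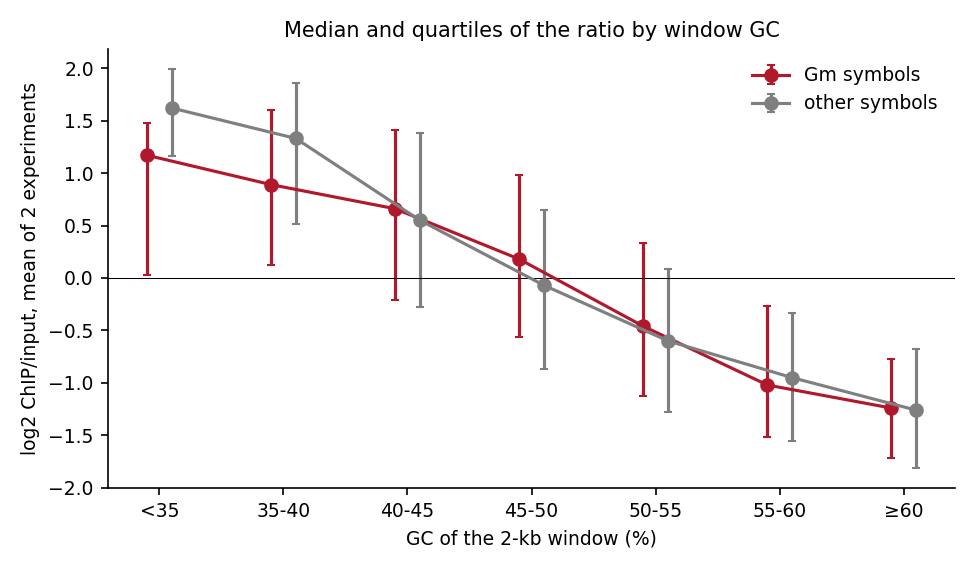
Points give the median log2 ratio of ChIP to input reads (mean of the 2 experiments) and bars the quartiles, against the GC content of the window of 1 kb either side of the start, for Gm and other symbols. Both curves fall from left to right, to -1.24 and -1.26 at 60% GC or more, and Gm lies below the others only at low GC and at 55 to 60%.

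CpG islands are CG-dense stretches that are usually free of silencing marks. Of 197 CpG-rich Gm promoters (window GC of at least 55% and observed to expected CpG of at least 0.6), 65 were below input and 6 above, with a median of -1.08. For the 4143 CpG-rich promoters with other symbols, 35.5% were below and 2.39% above. Of the 6 Gm promoters above input, 5 are named here: Gm7461, Gm4219, Gm10190, Gm16066 and Gm15420. Without input v134 the call held for Gm7461 only among these 5 (edgeR adjusted p from 0.0537 to 0.222 for the others), and Gm16066 and Gm15420 were also lost without ChIP v134 (0.364 and 0.950) or input v102 (0.119 and 0.109). DESeq2 did not call Gm10190, Gm16066 and Gm15420 (adjusted p 0.0897, 0.103 and 0.175). Gm4219 had 13 and 24 ChIP reads against 25 and 30 input reads, and its neighbour Rab11fip2, whose start is 68 bp away, had 13 and 24 against 25 and 33, mostly the same window. Repeat content varied in the opposite sense to GC. Gm promoters with at least 50% of the window soft-masked as repeat were above at 43.6% of 140, and those with under 10% at 17.1% of 604. For the other promoters these shares were 36.5% of 219 and 9.36% of 6541.

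The 10 Gm promoters with the highest ratios included Gm5145, Gm15389, Gm6760, Gm5185, Gm12769, Gm20730, Gm6910, Gm4822 and Gm8775. The mean log2 ratios of the 10 ran from 2.90 to 3.47, at or above the 99.8th percentile of all promoters. Gm5145 (ENSMUSG00000071273.4, chr17:20570369-20571198, plus strand), a processed pseudogene 5613 bp from the vomeronasal receptor gene Vmn2r109, had 34 and 29 ChIP reads against 6 and 21 input reads in v102 and v134. Its log2 fold change was 3.52 ± 0.40 (SE, n = 2; edgeR adjusted p = 9.77e-16). Gm15389 (ENSMUSG00000086161.1), the lincRNA with the repeat shown above, had 20 and 37 ChIP reads against 6 and 22 (3.29 ± 0.40, SE, n = 2; edgeR adjusted p = 1.62e-13). It starts 97002 bp from Serpinb8, a serine protease inhibitor gene. The processed pseudogenes Gm5185 and Gm4822 had 47 and 60 ChIP reads against 16 and 44, and 36 and 57 against 13 and 44. They lie 385322 bp from Spanxn4 and 806270 bp from Slitrk5, each the nearest promoter without a Gm symbol. Gm12769, an older name of the secretoglobin gene Scgb1b24, had 57 and 57 ChIP reads against 19 and 43. Gm20730, an immunoglobulin variable segment beside the olfactory receptor pseudogene Olfr443-ps1, had 16 and 29 against 5 and 23. The lowest input was 3 reads, at Gm6760 on the X chromosome (19 and 18 ChIP against 3 and 20 input reads), so single ratios are imprecise there. At all 10, which were chosen for this ratio, both ChIP values lay above both input values after scaling by library total.

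At the other end, 30 Gm promoters (0.955%, against 2.12% of the others) had 0 ChIP reads in both experiments. The 10 lowest were all of this kind. Their order therefore largely follows the summed input, from 74 reads at Gm17206 to 56 at Gm9766. Their fold is given as a bound, with a floor of 3 reads over both ChIP libraries. Gm17206, antisense with the nearest other start 16423 bp away at Serhl, had 22 and 52 input reads and was at least 5.67-fold lower in ChIP (edgeR adjusted p = 7.68e-05). Gm16023 had 19 and 45 input reads (at least 4.91-fold lower; edgeR adjusted p = 2.96e-04), and its partner Cdk11b, a cyclin-dependent kinase, also had 0 ChIP reads against 19 and 43. Gm10785 had 30 and 25 input reads (at least 4.22-fold lower; edgeR adjusted p = 6.85e-04), and its partner Donson, a DNA replication gene, had 0 ChIP reads against 31 and 21. Gm20605, a protein-coding model 54 bp from the start of Lrch4, had 19 and 51 input reads. For Gm15122, Gm11612, Gm16535, Gm10684, Gm15523 and Gm9766, an older name of Cep85l, the bounds ran from 4.29 to 5.37. Leaving out input v134 ended the call for Gm20605, Gm16023, Gm11612 and Gm16535 (edgeR adjusted p = 0.0561 for each), and leaving out input v102 ended it for Gm10684 and Gm10785 (edgeR adjusted p = 0.0624 and 0.154).

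**Figure D5:**
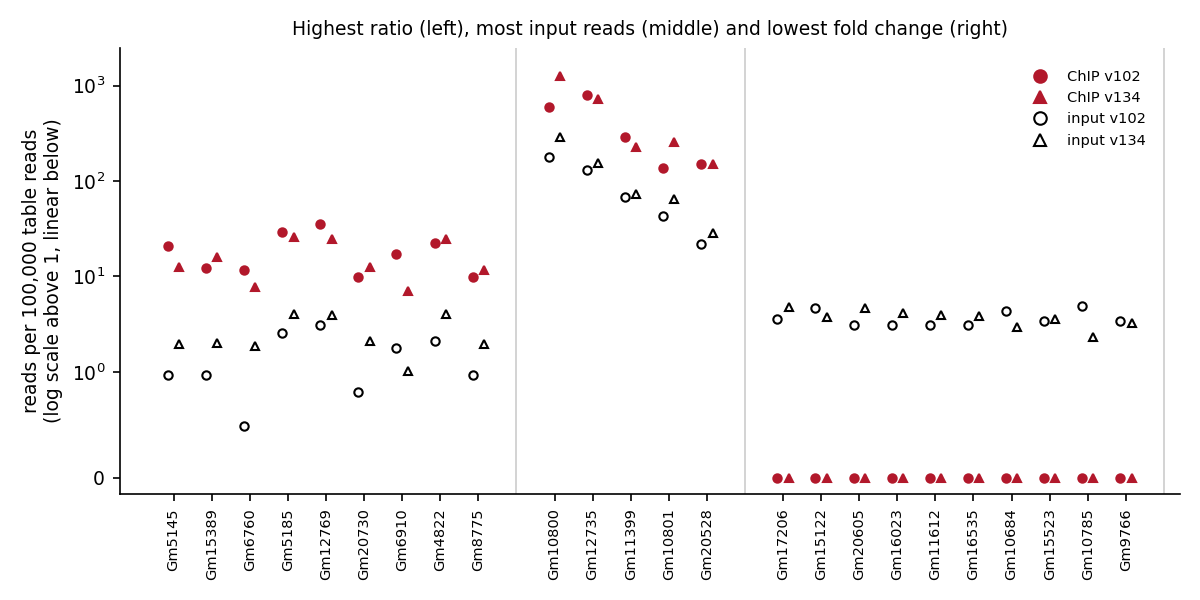
Points give reads scaled to the table total of each library (axis logarithmic above 1 and linear below), filled for ChIP and open for input, circles for v102 and triangles for v134, at 9 of the 10 Gm promoters with the highest ratio, the 5 with the most input reads and the 10 with the lowest fold change. ChIP lies above input in both experiments in the first and second groups and at 0 in the third.

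Input reads themselves set 5 Gm promoters apart. Across Gm promoters the summed input ran from 30 to 86 reads between the 5th and 95th percentiles, and 5 promoters had 150 or more, while 35 others did, 26 of them mitochondrial. Gm10800 (chr2:98666547-98667301, minus strand) had 1098 and 3122 input reads, and 968 and 2899 in ChIP. Its neighbour Gm10801, on the other strand, had 265 and 708 in input, and 223 and 584 in ChIP. On chromosome 11, Gm12735 had 803 and 1698 input reads, and its overlapping neighbour Sfi1, a spindle assembly gene that starts 800 bp away, had 786 and 1550. Gm11399, within Sfi1 on the other strand, had 426 and 802. Gm20528, a transcript that starts within the glucuronidation gene Ugt1a1 on the other strand, had 136 and 312. These 5 took 12.1% and 15.9% of all Gm ChIP reads in v102 and v134. They were above input after scaling, with log2 fold changes from 2.00 to 2.69. For Gm10800 the call rests on the fit, at 2.14 ± 0.84 (SE, n = 2; edgeR adjusted p = 0.0345), and with the experiment as a block the adjusted p was 0.122. Without ChIP v102 or ChIP v134 the calls of Gm10800, Gm12735 and Gm11399 were lost, and that of Gm10801 was lost without ChIP v134 (edgeR adjusted p from 0.0619 to 0.336). How reads with several matches in the genome were treated is not given in the sources used here, so the counts of these windows and of pseudogenes, which resemble their parent genes, are uncertain to that extent.

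Gm promoters within the first 4 Mb of a chromosome, next to the centromere in the mouse, were above at 10 of 25, against 16.6% of 175 other promoters there. They include Gm11399 and Gm12735, and the chromosome 9 genes Gm10717, Gm10718 and Gm10722, which had 31, 28 and 23 ChIP reads in v102 and 123, 130 and 99 in v134. For these chromosome 9 genes, in that order, the edgeR log2 fold changes were 2.36, 2.40 and 2.48. Without ChIP v134 the fold changes were 1.38, 1.24 and 1.40. Across chromosomes the share above ran from 18.8% of 335 on chromosome 11 to 38.9% of 72 on chromosome 16. Chromosome 7 was the only one of those with Gm members where the Gm share above (19.2%) was lower than that of the other promoters (26.9%). On the X chromosome, present once in male cells, the median summed input was 29 reads at 80 Gm promoters, compared with 57 over all Gm promoters, and 28.8% were above.

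Only 2 runs of at least 5 successive Gm promoters, each within 100 kb of the next, were present. In the first, on chromosome 11 over 82.2 kb beside the keratin-associated protein gene Krtap4-8, all 5 (Gm14190, Gm14193, Gm14180, Gm14188 and Gm11595) were called above, with log2 ratios from 1.38 to 2.35. The highest was Gm14190, with 18 and 25 ChIP reads against 10 and 30 input reads. Gm14180 was the lowest, with 10 and 20 against 17 and 33. Gm11595, whose 10 and 8 ChIP reads stood against 7 and 19, had an edgeR adjusted p of 0.00918, and 0.0507 with the experiment as a block. Calls of Gm14180 and Gm11595 were lost when either input library was left out, the former also without ChIP v134 and by DESeq2 (adjusted p 0.0514), and the latter without ChIP v102, and that of Gm14188 without input v134. The second run, on chromosome 4 over 115 kb near Igsf21, an immunoglobulin superfamily gene, was mixed. Gm9867 was above with 21 and 21 ChIP reads against 20 and 27 (2.09 ± 0.40, SE, n = 2; edgeR adjusted p = 3.73e-06), and Gm13016, Gm13017, Gm13021 and Gm13026 were not called, with log2 ratios from -0.27 to 0.82.

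The promoter with the highest ratio among those called above input is given for the annotation classes with at least 10 members that are not yet described. For antisense transcripts it was Gm13327, whose window overlaps that of Gpr158, a receptor gene of the nervous system. Gm13327 had 50 and 21 ChIP reads against 11 and 31 input reads, and Gpr158 had 38 and 24 against 24 and 37. For sense-intronic RNAs it was Gm15397, whose start lies 390632 bp from that of Pcdh15, a hair cell cadherin gene, with 16 and 25 against 11 and 40. Among transcribed processed pseudogenes it was Gm10175, 3342 bp from Vmn1r180, with 22 and 22 against 13 and 22. Among unprocessed pseudogenes it was Gm10212, 32648 bp from Ms4a4d, with 19 and 22 against 7 and 32. Since all 4 were chosen among promoters called above, their calls (edgeR adjusted p at most 1.10e-05) follow from the choice.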

How the data were processed

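H3K9me2 ChIP and input libraries (2 each) were analysed. Per the submitters' processing notes, reads were trimmed with Trim Galore 0.4.2 and cutadapt 1.9.1 and aligned to GRCm38 with Bowtie2 2.2.7. Using SeqMonk, the authors counted the reads in windows of 1 kb either side of gene starts and removed genes with few input reads, and the lowest summed input in the table is 21 reads. They deposited raw counts per library, the sums over both experiments and a ratio, ChIP sum over input sum, without scaling for library size. How duplicate and multiply matching reads were treated, and which annotation release was used, is not given in the sources used here.

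In R 4.3.3, edgeR 4.0.16 was fitted to all 26354 promoters after TMM scaling, and ChIP was set against input with its quasi-likelihood test, called at an adjusted p under 0.05. A standard error is the log2 fold change over the square root of F. DESeq2 1.42.0, other filters and scalings, and leaving out each library served as alternatives, and the test was checked on simulated counts. In that check most strongly raised promoters were called, but few of the weakly raised or of the lowered ones. The test can thus miss many lowered promoters. Symbols, classes and positions come from GENCODE release M21, which matched 22329 symbols once, and sequence from the GRCm38 assembly, so the start used by the authors may differ. GC content, CpG and soft-masked repeats were taken from the window of 1 kb either side of that start, and the GC trend was a lowess fit with a fraction of 0.3 in each experiment. The study pairs each ChIP with its own input, which makes the experiment number a block. The deviations of ChIP and input from their group means had a correlation of 0.104 across promoters. Chi-square per degree of freedom between the 2 libraries of a kind was 1.52 for ChIP and 1.28 for input, over sampling noise, and p-values measure the spread between libraries only. Other steps used pysam 0.24.0, matplotlib 3.10.9, statsmodels 0.14.6, scipy 1.17.1 and pandas 2.3.3 in Python 3.11.15.

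The members, subgroups and neighbouring gene families were chosen with earlier results of these data known. Named promoters were the 10 with the highest mean ratio among those above input and within each experiment's top quartile. Also named were the 10 with the lowest fold change among those below input and under the median of both, and the 5 with the most input reads. Further ones were the highest among those above input in each annotation class with at least 10 members, and tandem runs of at least 5. The CpG-rich exceptions, the Hoxd neighbours and the 3 chromosome 9 genes were named after their values were seen. The promoter of 1 further member of the first list, also CpG-rich, is not reported here.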

Additional observations from a re-analysis of the deposited data

How the results depend on the processing

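None of the alternatives reversed a comparison. Numbers of Gm promoters called above input, 806 in the reported fit, were 495 with DESeq2 (1745 adjusted p-values undefined), 407 among the 1617 with at least 20 reads in each input (25.2%, against 17.5% of all) and 5 of 5 with at least 50, where 36.6% of the promoters tested were above and their median log2 fold change had shifted by -2.20. Those below, 359 as reported, were 0 with DESeq2 (181 at an unadjusted p under 0.05), 123 and 0 under these 2 filters, 158 with the replicate block, 205 on autosomes alone and 176 without overlapping windows. Leaving out 1 library gave 497 to 801 above and 32 to 355 below. Without input v102 the counts were 499 and 37, without input v134 497 and 32, and without ChIP v134 551 and 139. The filters test fewer promoters; the cause of the other losses was not tested. The difference in medians, 0.46, was 0.28 with a pseudocount of 5 reads, 0.59 without overlapping windows and 0.08 with the GC trend removed. The pooled ratio, 1.58, was 1.88 with 20 reads in each input, 1.39 without mitochondrial promoters, 1.44 without overlapping windows and, in an alternative chosen after seeing the data, 1.43 without the 5 promoters richest in input. The top-quartile share, 25.2%, was 27.1% without overlapping windows and 18.0% with the GC trend removed (13.4% of the others), and in single experiments it was 32.8% to 35.3%. Library totals in place of TMM shifted the median of all promoters (log2 fold change) by -0.14. The 10 highest promoters stayed called in 95 of 95 alternative fits and the 10 lowest in 81 of 87, which leave out DESeq2, whose adjusted p is undefined at all 10 of the lowest. Fits with at least 20 or 50 reads in each input are not among the 95. Each of the 10 highest had fewer than 20 reads in input v102, from 3 at Gm6760 to 19 at Gm12769. The block ended the calls of Gm10800, Gm11595, Gm14396 and Gm14424 and of no other Gm promoter named here. With 6 and 7 ChIP reads at the median Gm promoter, low ratios rest on very few reads.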
